A study of Owenia fusiformis with 9 samples.

Results

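In adult *Owenia fusiformis*, a tube-dwelling marine annelid, 37 of the 31911 transcripts of the deposited table were read at a substantial level in every tissue library except the testis. They were chosen by these same values. A transcript was taken when its lowest normalized signal in the 8 libraries other than Testis was 100 or more and, with 10 added to both, at least 5 times its Testis signal. Up to 200 transcripts were to be kept and only 37 passed, so all of them were kept, and they belong to 37 different genes. The signal is the number of sequenced reads assigned to a transcript after division by a factor for the library, which varies slightly between transcripts. It is not divided by transcript length, so it compares a transcript between libraries and does not rank transcripts by level. Since the low Testis value and the floor elsewhere chose the members, both are given below as a description.

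The study dissected adult worms into 9 tissues or body regions and sequenced 1 RNA library from each, without replicates. Testis, Retractor-muscle, Blood-vessel and Head+Chaetae (the chaetae are the bristles of annelid segments) are labelled male, and the dissection notes name 1 male worm. Ovary, Gut and Body-Wall are labelled female and were matched through this label to the 1 female of the notes, which name muscle without saying which library it is, and Head and Tail came from 5 females. All worms were untreated adults kept in artificial sea water with mud and fed algae. No differential expression test was run between tissues, because tissue cannot be told apart from the worm, the dissection and the library, and the intervals given cover counting error only. In bulk tissue, fewer cells of a type and less RNA per cell cannot be told apart either. None of the transcript identifiers was found in the reference gene table used here, so the transcripts carry no gene names or sequences, and the tissue labels could not be checked against marker genes.

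A gene can give rise to several transcripts, called isoforms, by using different starts, exons or ends. In mammals and flies the testis is known for isoforms of its own, made during the development of sperm from genes that other tissues also use. A transcript can therefore be missing from the testis in different ways, when the whole gene is little used there or when the gene is used through another of its isoforms. Short reads that fall in sequence shared by isoforms are divided among them by a likelihood model, and the 0 of an isoform in such data is an estimate.

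The libraries held between 14608988 (Blood-vessel) and 22177997 (Testis) recovered reads. The signal was concentrated in few transcripts in Testis, where the top 10 held 77.4%, and in Retractor-muscle (66.5%), against 7.34% to 16.1% in the other 7 libraries. Because of the library factors, 1 read was worth 5.53 units of signal in Testis and 2.75 in Retractor-muscle, but between 0.595 and 0.948 elsewhere, and a signal of 100 stood for 18.1 reads in Testis and 168 reads in Body-Wall. By counting error alone, a count of 0 reads in Testis allows up to 3 reads, or a signal of 16.6. Values and orders below are on the deposited scale. In CPM, where each library is scaled to the same sum, Testis and Retractor-muscle fall relative to the other 7 libraries, and results that turn on that scale are named. The number of Testis reads and the share of an isoform in its gene within a library are the same on every scale.

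Of the 3858 transcripts with a signal of 100 or more in all 8 other libraries, called broad transcripts here, the 37 members made up 0.959%. With another library in the place of Testis, the same rule was passed by 54 transcripts low in Blood-vessel (1.33% of the broad transcripts for that library), 17 low in Ovary (0.443%), 14 low in Retractor-muscle (0.368%) and 7 low in Gut (0.187%). It was passed by 1 transcript each for Head+Chaetae (0.0259%), Head (0.0269%) and Tail (0.027%), and by 0 for Body-Wall. The order of Testis and Blood-vessel turns with the scale, with 424 transcripts for Testis and 25 for Blood-vessel in CPM, and 75 and 43 when 30 dominant transcripts are left out of the library sums. The least pronounced members were OFUSG08681.1, OFUSG05199.1 and OFUSG16959.1, with ratios of 7.13, 6.53 and 5.09. The nearest transcripts outside the threshold were OFUSG18025.1, OFUSG00581.1 and OFUSG10939.1, at 4.71, 4.44 and 4.40.

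**Figure D1:**
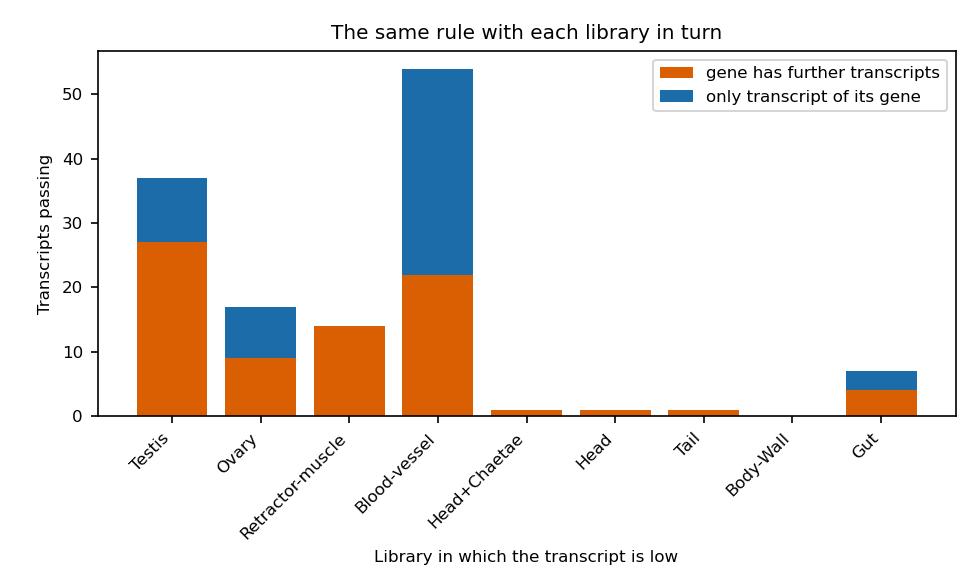
Number of transcripts (vertical axis) that had a signal of 100 or more in 8 libraries and, with 10 added, a signal at least 5 times lower in the library named on the horizontal axis. Colours separate transcripts whose gene has further transcripts from those that are the only transcript of their gene; Testis has 27 and 10, and Blood-vessel 22 and 32.

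The members fell into 2 groups by the structure of their gene, which the rule did not use. In the table, 27 of the 37 (73.0%) belong to genes with 2 or more transcripts, and 10 are the only transcript of their gene. Of the larger sets that passed in CPM and in CPM without the dominant transcripts, 25.2% and 56.0% had sister isoforms. Over all transcripts of the table the share was 26.9%, close to that of the CPM set. The share among the broad transcripts on those 2 scales was not computed. Among the 3821 broad transcripts that did not pass, 572 (15.0%) belong to genes with 2 or more transcripts. Put the other way, 4.51% of the 599 broad transcripts with sister isoforms were members, against 0.307% of the 3259 without. The groups also differed in their Testis reads. No read was found in Testis for 24 of the 27 members with sister isoforms, and the other 3 had 1 or 2 reads. Each of the 10 single-transcript members had at least 1 read in Testis, and 5 of them had more than 3. Across all 3259 broad transcripts that are alone in their gene, 0 lacked a Testis read. The same rule on the other libraries gave 14 of 14 with sister isoforms for Retractor-muscle, 9 of 17 for Ovary, 22 of 54 for Blood-vessel and 4 of 7 for Gut. In those 4 libraries too, every transcript that passed with no read (13, 7, 6 and 2) had a sister isoform.

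**Figure D2:**
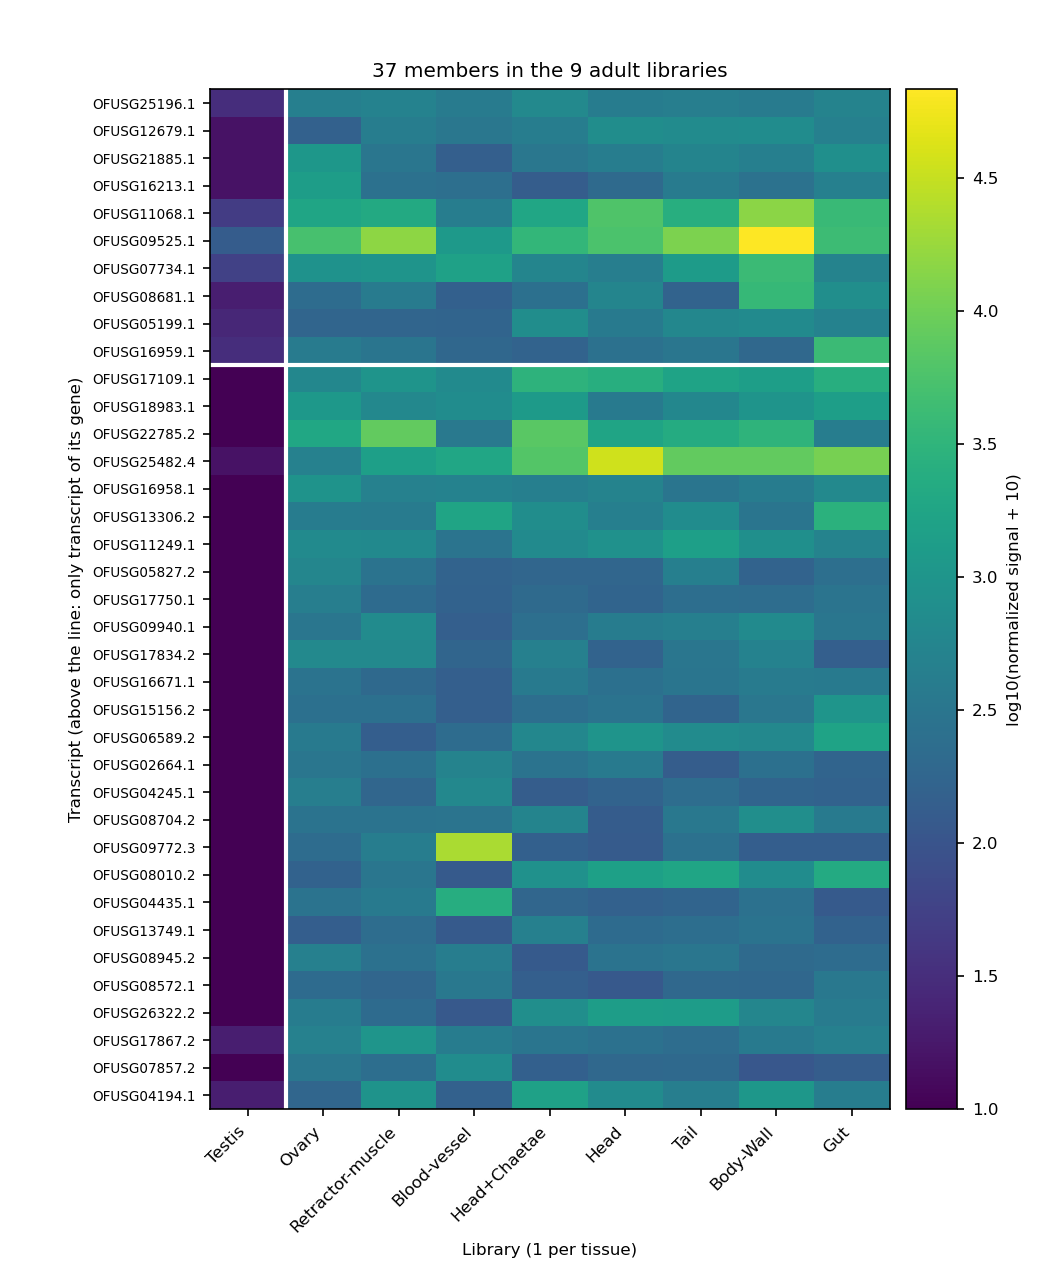
Signal of the 37 members (rows) in the 9 libraries (columns, Testis at the left), as log10 of the normalized signal plus 10, with 1 library per tissue. The 10 rows above the horizontal white line are the only transcripts of their genes and have 1 to 22 reads in Testis; below it 24 of 27 rows have no read there.

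For each of the 10 single-transcript members, the transcript is the whole annotated gene. Their Testis signal lay between 5.53 and 122, and their lowest signal elsewhere between 126 and 1114. OFUSG25196.1 was the most even of all 37 members. Its signal was 22.1 in Testis, against 434 in Ovary, 493 in Retractor-muscle, 384 in Blood-vessel, 634 in Head+Chaetae, 389.8 in Head, 429 in Tail, 385 in Body-Wall and 499.6 in Gut. The highest of the 8 was 1.65 times the lowest, and 6.36 times in CPM, where Retractor-muscle is scaled down. The lowest of them was 17.3 times the Testis signal, which rests on 4 reads (95% exact Poisson interval of the Testis count, 6.78 to 63.7).

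OFUSG12679.1, OFUSG21885.1 and OFUSG16213.1 had 1 read each in Testis. OFUSG12679.1 had a signal of 5.53 in Testis, against 144 in Ovary, 408 in Retractor-muscle, 323 in Blood-vessel, 408 in Head+Chaetae, 750.2 in Head, 685 in Tail, 713 in Body-Wall and 452 in Gut. Both gonads were its lowest libraries, with Ovary 26.0 times Testis (4.66 to 1026). OFUSG21885.1 and OFUSG16213.1 had the opposite order, with Ovary as their highest library. OFUSG21885.1 had 5.53 in Testis, against 1069.8 in Ovary, 314 in Retractor-muscle, 133 in Blood-vessel, 317 in Head+Chaetae, 406 in Head, 531 in Tail, 434 in Body-Wall and 797 in Gut. OFUSG16213.1 had 5.53 in Testis, against 1368 in Ovary, 257 in Retractor-muscle, 237 in Blood-vessel, 126 in Head+Chaetae, 199 in Head, 389 in Tail, 266 in Body-Wall and 460.5 in Gut. Its Ovary signal was 5.32 times the median of the other 7 libraries, the largest such ratio for Ovary among the members, so the 2 gonads stood at opposite ends of its range.

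In 4 single-transcript members the body wall was the highest library. OFUSG09525.1, the member with the most Testis reads (22), had a signal of 122 in Testis, against 5203 in Ovary, 14938 in Retractor-muscle, 1114 in Blood-vessel, 3448 in Head+Chaetae, 5528 in Head, 11866 in Tail, 67949 in Body-Wall and 4224 in Gut. Its lowest other library was 9.16 times Testis (6.05 to 14.6), the narrowest interval among the members. OFUSG11068.1 had 38.7 in Testis, against 1753 in Ovary, 2111 in Retractor-muscle, 411 in Blood-vessel, 1870.4 in Head+Chaetae, 5934 in Head, 2475 in Tail, 14757 in Body-Wall and 3979.7 in Gut. In both, Blood-vessel was the lowest library after Testis, and Body-Wall was 61.0 and 35.9 times Blood-vessel. OFUSG07734.1 had 44.2 in Testis, against 889.6 in Ovary, 937 in Retractor-muscle, 1539 in Blood-vessel, 541 in Head+Chaetae, 421 in Head, 1278 in Tail, 4077 in Body-Wall and 511 in Gut. OFUSG08681.1 had 11.1 in Testis, against 217 in Ovary, 377 in Retractor-muscle, 140.2 in Blood-vessel, 246 in Head+Chaetae, 547 in Head, 158 in Tail, 3651 in Body-Wall and 768 in Gut. Its Body-Wall signal was 14.9 times the median of the other 7, the largest such ratio for Body-Wall. These 4 transcripts were thus low in Testis and unevenly spread elsewhere.

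The last 2 single-transcript members were closest to the threshold. OFUSG05199.1 had a signal of 16.6 in Testis, against 168 in Ovary, 166 in Retractor-muscle, 163 in Blood-vessel, 742 in Head+Chaetae, 370.3 in Head, 579.7 in Tail, 668 in Body-Wall and 489 in Gut. Ovary, Retractor-muscle and Blood-vessel were low and close together here, with Testis below them. OFUSG16959.1 had 22.1 in Testis, against 388 in Ovary, 295 in Retractor-muscle, 184 in Blood-vessel, 153 in Head+Chaetae, 256 in Head, 306 in Tail, 189 in Body-Wall and 4106 in Gut. Gut was 16.1 times the median of the other 7 libraries, and the lowest other library was 6.94 times Testis (2.71 to 25.5). This interval includes folds under 5, as do those of OFUSG12679.1, OFUSG21885.1, OFUSG16213.1, OFUSG07734.1, OFUSG08681.1 and OFUSG05199.1, so for these 7 a fold under 5 lies within counting error. Reads of near-identical gene copies can be divided in the same way as those of isoforms, and whether any of the 10 has such a copy was not tested.

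**Figure D3:**
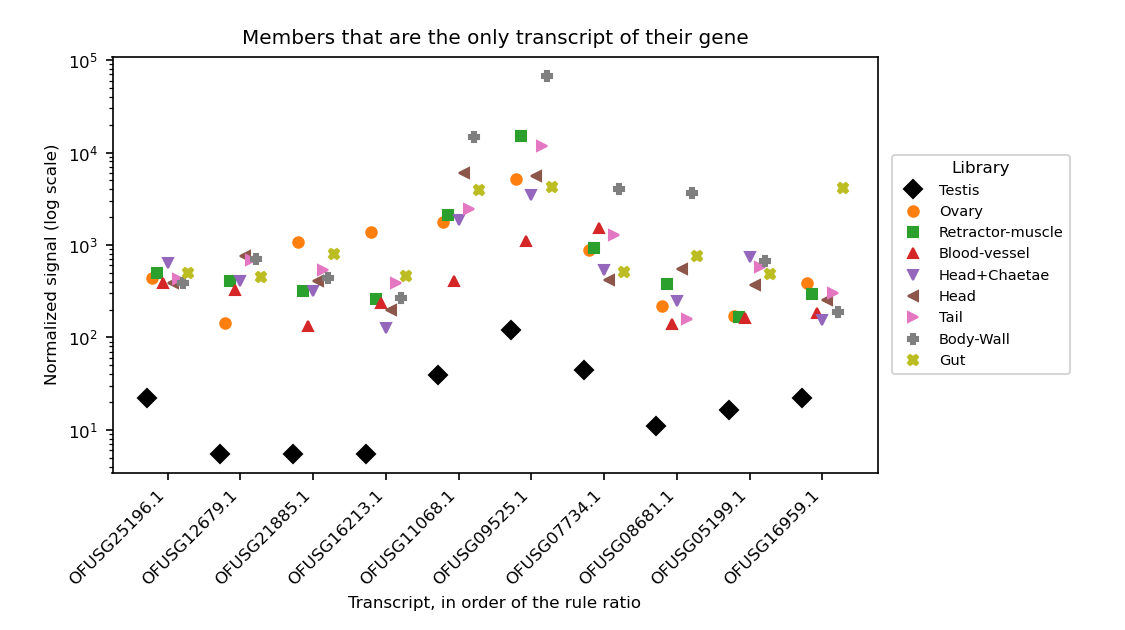
Normalized signal (vertical axis, log scale) of the 10 members that are the only transcript of their gene, in order of the rule ratio, with 1 point per library and no replicates. Testis (black diamonds, 5.53 to 122) is the lowest point for every transcript, and the spread of the other 8 ranges from 1.65-fold in OFUSG25196.1 to 61.0-fold in OFUSG09525.1.

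For the 27 members with sister isoforms, the rule did not use the values of the sisters, and these differed from those of the members. The sister values are not independent of the choice, because reads shared by isoforms are divided among them. A member estimated at 0 in Testis leaves such reads to its sisters, and how many there were was not tested. On the deposited scale, when the signals of all transcripts of the gene were summed, only 2 of the 27 genes still met the 5-fold criterion, and 25 did not. The ratio of the lowest other library to Testis, with 10 added, had a median of 14.0 for the members and 0.628 for their genes, where a value under 1 means that Testis was above the lowest of the other libraries. The gene sum in Testis lay within the range of the other 8 libraries for 17 genes, above the highest for 4 and below the lowest for 6, and it was under their median for 19. These positions depend on the scale. In CPM the gene sum in Testis was below the lowest other library for 24 genes and above the highest for 0, with a median ratio of 2.27, and without the dominant transcripts it was below for 17 and above for 1, with a median ratio of 1.22. Each of the 27 genes had at least 2 reads in Testis from its other isoforms, with a median of 98 and a maximum of 3346. By these estimates, each of these genes was read in Testis through isoforms other than the member. The level of the gene there relative to other tissues was not settled.

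**Figure D4:**
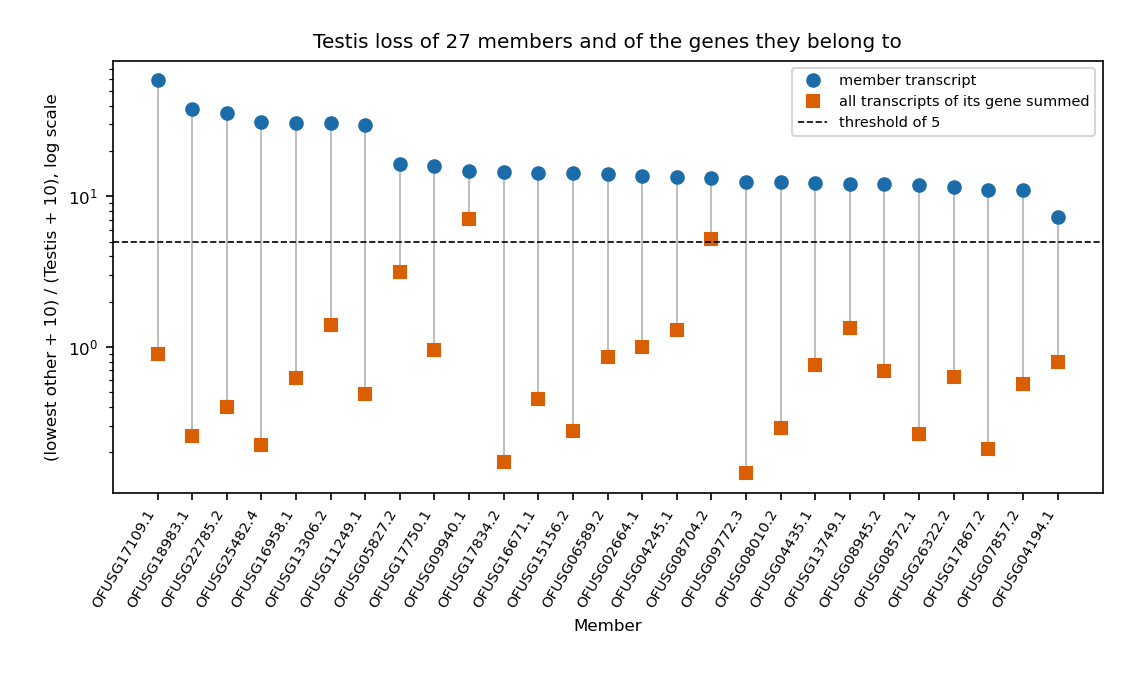
Lowest of the other 8 libraries over Testis, both with 10 added (vertical axis, log scale), for the 27 members whose gene has further transcripts (circles) and for the sum of all transcripts of the same gene (squares), joined by a line. All circles lie above the threshold of 5 (dashed); 2 squares, OFUSG09940.1 and OFUSG08704.2, remain above it on the deposited scale.

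The member was usually the main isoform of its gene outside the testis. In the median of the 8 other libraries it took more than 50% of the gene's signal in 21 of the 27 genes, and in 13 genes it did so in each of the 8. Over the 27 genes this median share was itself 70.4% at the median and ranged from 4.23% to 100%. In Testis the share of the member was 0% in 24 genes and at most 6.06%. The rule chose the members as low in Testis and at 100 or more elsewhere. That choice favours such shares, so the contrast is a description. The same shares were not computed for the broad transcripts with sister isoforms that did not pass. Transcript lengths were not available here, so these are shares of reads and not of molecules. In Retractor-muscle, the other library in which few transcripts held most of the signal, the member took a median of 68.6% of the gene, and the lowest share was 0.878%.

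**Figure D5:**
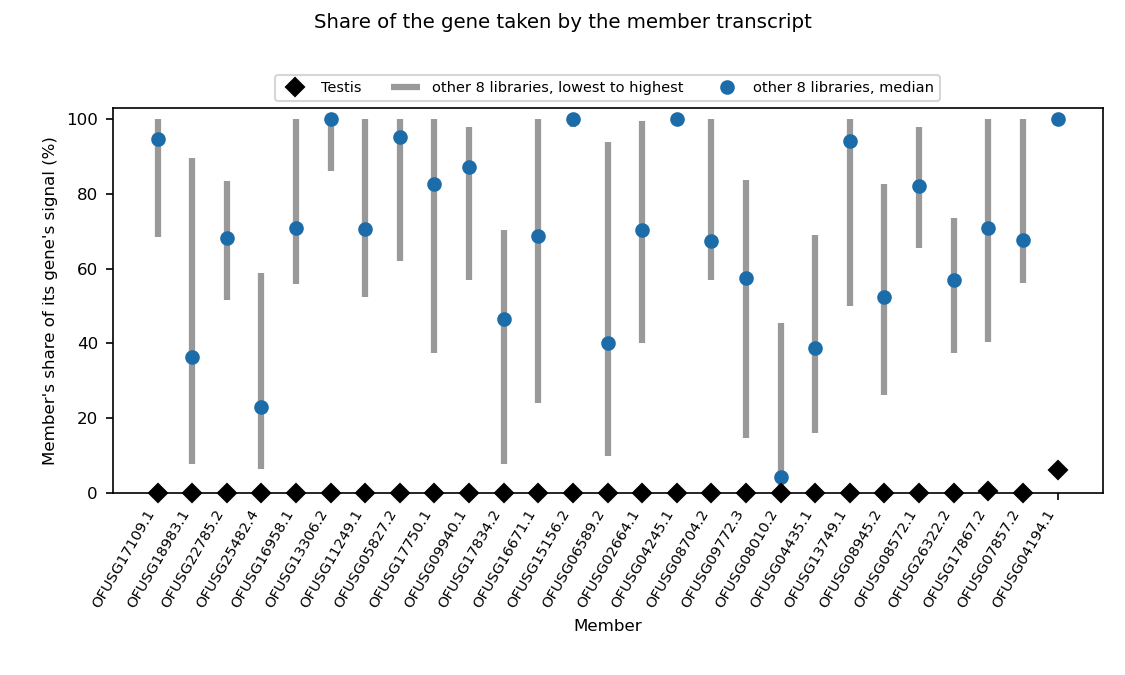
Share of the gene's summed signal taken by the member transcript (vertical axis, percent) in Testis (diamonds) and in the other 8 libraries (bars from the lowest to the highest, circles at the median), for the 27 genes with 2 or more transcripts. The Testis share is at most 6.06%, whereas the medians elsewhere range from 4.23% to 100%. The members were chosen as low in Testis and at 100 or more elsewhere.

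The 10 members with the largest ratios all had sister isoforms. OFUSG17109.1, with a ratio of 58.8, had a signal of 0 in Testis, against 578 in Ovary, 966 in Retractor-muscle, 664 in Blood-vessel, 2993 in Head+Chaetae, 2520.0 in Head, 1649 in Tail, 1413 in Body-Wall and 2484 in Gut. The lowest of these was 34.9 times the signal of 3 Testis reads. That limit covers counting error and not the division of reads between the member and its sister. Its only sister, OFUSG17109.2, had 735 in Testis, against 77.7 in Ovary, 443 in Retractor-muscle, 155 in Blood-vessel, 46.1 in Head+Chaetae, 130.6 in Head, 94.2 in Tail, 65.9 in Body-Wall and 0 in Gut. Testis was the lowest library of the member and, on this scale, the highest of its sister, which in CPM had 173 in Testis against 379 in Head. The gene sum in Testis, 735, lay within the range of the other libraries, 656 to 3039.

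OFUSG18983.1, second by ratio at 38.2, had 0 in Testis, against 1082 in Ovary, 604 in Retractor-muscle, 726 in Blood-vessel, 1199 in Head+Chaetae, 372 in Head, 574 in Tail, 963 in Body-Wall and 1415 in Gut. Its sisters OFUSG18983.2 and OFUSG18983.3 had 1625 and 1575 in Testis. The member's share of the gene was 0% in Testis and ran from 7.78% in Retractor-muscle to 89.7% in Blood-vessel elsewhere. The isoforms of this gene therefore differed widely among the other tissues too. OFUSG22785.2, at 35.8, had 0 in Testis, against 1877 in Ovary, 8241 in Retractor-muscle, 348 in Blood-vessel, 7094 in Head+Chaetae, 1724 in Head, 2242 in Tail, 3061 in Body-Wall and 418 in Gut. It held the largest ratios to the median of the other 7 libraries for Retractor-muscle (4.39) and Head+Chaetae (3.78). Its sister OFUSG22785.1 had 956 in Testis and at most 102 elsewhere, in Blood-vessel, and in CPM 225 against 213.

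OFUSG25482.4, at 31.2, was the one member of the leading 10 with a Testis read. Its signal was 5.53 in Testis, against 475 in Ovary, 1426 in Retractor-muscle, 1825 in Blood-vessel, 6503 in Head+Chaetae, 36403 in Head, 8048 in Tail, 8272 in Body-Wall and 11284 in Gut. The gene itself was abundant in Testis, with a sum of 18499.8 there against 4139 to 72681 elsewhere. Its 3 sisters had the highest Testis signals of all sister isoforms. OFUSG25482.2 had 12458.5 in Testis, against 0 in Ovary, 10017 in Retractor-muscle, 28.4 in Blood-vessel, 9635 in Head+Chaetae, 3272 in Head, 1013 in Tail, 1123 in Body-Wall and 68.2 in Gut. OFUSG25482.3 had 3178 in Testis and its highest signal, 59989, in Gut, and OFUSG25482.1 had 2858 in Testis and its highest, 20868, in Head. The 4 isoforms of this gene were thus unevenly spread, the member and OFUSG25482.1 with their highest signal in Head.

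Like OFUSG17109.1 and OFUSG22785.2, another 3 of the leading 10 had 0 in Testis and a sister highest in Testis on the deposited scale. In CPM, Testis stayed the highest library of the sister OFUSG13306.1, but not of the sisters OFUSG16958.2 and OFUSG11249.2. OFUSG16958.1 (ratio 30.8) had 0 in Testis and 298 to 935 elsewhere, while OFUSG16958.2 had 647 in Testis and at most 305 elsewhere. OFUSG13306.2 (30.6) had 0 in Testis and 296 to 2749 elsewhere, while OFUSG13306.1 had 210.04 in Testis and at most 2.05, in Ovary. OFUSG11249.1 (29.9) had 0 in Testis and 289 to 1450.5 elsewhere, while OFUSG11249.2 had 614 in Testis and nearly as much, 607, in Head+Chaetae. For OFUSG05827.2 (16.3) and OFUSG17750.1 (15.9) the sister was within its range elsewhere. OFUSG05827.1 had 44.2 in Testis and up to 247 in Tail, and OFUSG17750.2 had 238 in Testis and up to 249.6 in Blood-vessel. OFUSG09940.1 (14.6) had 0 in Testis and 136 to 708 elsewhere, and its sister OFUSG09940.2 had only 11.1, or 2 reads, in Testis. This gene, at a sum of 11.1 in Testis against 139 to 843 elsewhere, and OFUSG08704, at 33.2 in Testis against 213 to 1116, were the 2 that stayed low in Testis when summed. They came with the 10 single-transcript members, so that 12 of the 37 members belong to genes that met the 5-fold criterion as a whole.

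In some genes an isoform with most of its signal in Testis stood beside a member read in all other libraries. Counted with the rule turned round (Testis at least 5 times the highest of the other 8, with 10 added), 8 of the 42 sister isoforms passed (19.0%), in 8 different genes, against 2 in CPM and 4 in CPM without the dominant transcripts. Of the 617 sister transcripts of broad transcripts outside the list, 4 passed (0.648%), and of all 31295 transcripts with a signal in any library, 242 did (0.773%). The choice of members at or near 0 in Testis can itself raise the share of 19.0%, since shared reads then go to the sister. In OFUSG04194, the sister OFUSG04194.2 had 171 in Testis (31 reads) and 0 in each of the other 8 libraries. The member OFUSG04194.1 had 11.1 in Testis, against 176 in Ovary, 913 in Retractor-muscle, 144 in Blood-vessel, 1536 in Head+Chaetae, 693 in Head, 420.1 in Tail, 1050.5 in Body-Wall and 409 in Gut. The gene's reads thus came from separate isoforms in Testis and elsewhere, apart from 2 reads.

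OFUSG15156 and OFUSG04245 had the same arrangement at 2 transcripts each. OFUSG15156.1 had 509 in Testis and at most 3.59, in Tail, while the member OFUSG15156.2 had 0 in Testis, against 252 in Ovary, 254 in Retractor-muscle, 132 in Blood-vessel, 228 in Head+Chaetae, 277 in Head, 162 in Tail, 319 in Body-Wall and 976 in Gut. OFUSG04245.2 had 94.0 in Testis and at most 2.15, in Tail, while OFUSG04245.1 had 0 in Testis and between 125 in Head+Chaetae and 597 in Blood-vessel elsewhere. OFUSG26322.1, 1 of 5 transcripts of its gene, had 133 in Testis and 0 in each of the others, where the member OFUSG26322.2 ranged from 106 in Blood-vessel to 1332 in Head. The member was 3.34 times the median of the other 7 in Tail, the largest ratio for that library. OFUSG13306.1, OFUSG22785.1 (956 in Testis, at most 102 elsewhere), OFUSG08572.2 (652, at most 69.0) and OFUSG17867.1 (2283, at most 446) completed the 8. In CPM, OFUSG17867.1 and OFUSG08572.2 were lower in Testis than in their highest other library, at 537 against 1126 in Head+Chaetae and 154 against 181 in Body-Wall. Of these 8 isoforms, 7 had no read in Retractor-muscle, and OFUSG08572.2 had 69.0 there. By counting error alone, a count of 0 in Retractor-muscle allows a signal of up to 8.25. The rule chose these isoforms as low outside Testis, and zeros were not particular to Retractor-muscle. OFUSG15156.1, OFUSG13306.1 and OFUSG04245.2 were at 0 in 7 of the other 8 libraries, and OFUSG22785.1 in 6.

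In 4 genes the sum of isoforms was higher in Testis than in any other library on the deposited scale, although the member was at or near 0 there. OFUSG17867 had 2294 in Testis against 476 to 990.2 elsewhere, OFUSG17834 had 1973 against 331 to 1779, OFUSG16671 had 641 against 282 to 558, and OFUSG08572 had 652 against 165 to 369. In CPM Testis was the highest library of none of the 4, and without the dominant transcripts only of OFUSG17867. The member OFUSG08572.1 had 0 in Testis, against 212 in Ovary, 171 in Retractor-muscle, 334 in Blood-vessel, 137 in Head+Chaetae, 108 in Head, 189 in Tail, 182 in Body-Wall and 332 in Gut, which made it one of the 4 most even members, 3.08-fold between lowest and highest. OFUSG16671.1, at 2.87-fold, and OFUSG17750.1, at 2.89-fold, were the others beside OFUSG25196.1. At the other end, OFUSG09772.3 had 0 in Testis, against 215 in Ovary, 407 in Retractor-muscle, 22046 in Blood-vessel, 138 in Head+Chaetae, 115 in Head, 256 in Tail, 130.1 in Body-Wall and 129.7 in Gut. Its Blood-vessel signal was 159 times the median of the other 7 libraries and 192 times the lowest, the widest spread of the list. The sum of its gene was 1592 in Testis, against 26319 in Blood-vessel and a median of 496 over the 8. OFUSG08010.2, with 0 in Testis and 114 to 2189 elsewhere, was a minor isoform, with a median share of 4.23% of its gene. Its sisters OFUSG08010.5 and OFUSG08010.4 had 2625 and 2592 in Testis.

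Over all 37 members, the highest of the 8 other libraries was a median of 6.40 times the lowest, against 4.27 times for the broad transcripts that did not pass. The difference lay mostly in the single-transcript members, at 10.3 against 4.17 for other broad transcripts alone in their gene. Members with sister isoforms had 5.18, against 4.90 for other broad transcripts with sister isoforms. These medians were computed on the deposited scale only. Spreads can change with the scale, as in OFUSG25196.1, at 1.65 as deposited and 6.36 in CPM. The lowest library after Testis was Blood-vessel for 17 members, Head for 5, Head+Chaetae for 4, Ovary and Tail for 3 each, Body-Wall and Gut for 2 each and Retractor-muscle for 1. The highest was Ovary for 7, Blood-vessel, Body-Wall and Gut for 6 each, Head+Chaetae for 5, Head and Retractor-muscle for 3 each and Tail for 1. No single tissue was therefore the highest for most members. These counts were not made for the broad transcripts that did not pass, so they describe the members and show no trait particular to them. On the deposited scale, Blood-vessel was also the library with the most transcripts passing the rule as low, 54. The members together took 0.000262% of the Testis signal, against 0.0712% of the Retractor-muscle signal and 0.215% to 1.13% of the other 7. The low Testis share follows from the choice of members, and few transcripts dominate the sums of Testis and Retractor-muscle. The 1.13%, in Body-Wall, includes the signal of 67949 of OFUSG09525.1. The members' Retractor-muscle signal differed little from that of the other tissues, with a median log2 ratio to the median of the other 7 libraries of -0.05, against 0.11 in the broad transcripts that did not pass. This value rests on the scaling of the library, and in CPM it was -2.31. Ovary, the other gonad, was above the median of the other 7 libraries for 18 of the 37 members. The same share was not computed for the broad transcripts that did not pass, whose median signal was highest in Ovary (502).

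For the 24 members without a Testis read, the lowest other library was 6.06 to 34.9 times the signal of 3 Testis reads, with a median of 7.91. These folds allow for counting error only and leave out the 10 that the rule adds to both sides. With the upper Poisson bound of the Testis reads in place of the Testis signal, only 20 of the 37 members still passed the rule. Each of the 24 has sister isoforms, and a different division of shared reads could make the folds lower. The broad transcripts that did not pass had a median of 448 in Testis, and 501 of the 3821 (13.1%) had Testis below all other libraries. The scaling between libraries decides how many transcripts pass. In CPM, 424 transcripts passed (10.3% of the broad ones), of which 107 had sister isoforms. All 37 members kept a ratio of 5 or more, and 5 fell under the floor of 100 because of their Retractor-muscle signal. The median log2 ratio over all broad transcripts was -0.95 as deposited and 1.07 in CPM, so that the fold of a member relative to the other broad transcripts was larger on the deposited scale.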

How the data were processed

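RNA from 9 adult tissues or body regions was sequenced on a BGISEQ-500, 1 library each. The authors' methods describe read trimming, pseudo-alignment to their gene models with kallisto and normalization with DESeq2. The submitters' processing notes name kallisto 0.44.0, DESeq2 1.34.0 and R 4.1.2, and the methods give other versions. The deposited values are a normalized signal per transcript and library.

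The value of 1 read in a library was found by fitting a constant step to its low values, up to 20 reads. Between 93.1% (Retractor-muscle) and 100% (Testis) of these lay within 0.1 read of a whole number. The steps vary slightly between transcripts, so recovered reads are approximate. How the kallisto estimates were passed to DESeq2 is not stated. CPM values were rescaled to the mean library sum. A count test could not be run with 1 library per tissue. Read counts of Testis have exact 95% Poisson intervals, and 0 reads were taken to allow 3. The computation was tested on simulated data.

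The members, lists and alternatives were chosen with earlier results of these data known. Transcripts were named by rule: the 10 largest ratios, the 3 nearest the threshold on each side, the 4 with the highest floor (OFUSG09525.1, OFUSG17109.1, OFUSG25482.4 and OFUSG07734.1), the 4 most and 4 least even, the 4 with most Testis reads, the member with the largest ratio for each library, and the 5 sister isoforms highest in Testis. All 10 single-transcript members, and the other sister isoforms and genes described, were named after their values were seen. The reference table of 27038 genes held 0 of the identifiers, so no marker or pathway list could be used. Software was Python 3.11.15, numpy 2.4.6, pandas 2.3.3, scipy 1.17.1 and matplotlib 3.10.9.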

Additional observations from a re-analysis of the deposited data

How the results depend on the processing

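The number of transcripts that passed the rule (37) was 77 with a floor of 50, 12 with a floor of 200, 10 with a constant of 50, 56 with a fold of 3, 424 in CPM, 75 in CPM after leaving out 30 dominant transcripts (over 1% of the signal in at least 1 library), 20 with the upper Poisson bound of the Testis reads and 13 genes with isoforms summed. The gene that joined 12 member genes there was OFUSG20654. With upper quartile scaling 33 passed, 32 of them members. Leaving 1 of the 8 other libraries out of the criterion gave 38 to 107, the highest without Blood-vessel and 47 or fewer otherwise.

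The median log2 ratio of the members (3.63) was 6.83, 4.57 and 1.85 with constants of 1, 5 and 50, 4.08 in CPM, 3.97 without the dominant transcripts, 3.60 with upper quartile scaling, 2.35 with the upper Poisson bound and 4.79 against the median of the other libraries. It was -0.16 with isoforms summed, where 27 genes take in the reads of their other isoforms. With 1 library left out it was 3.63 to 3.82. The median log2 ratio of Retractor-muscle (-0.05) was -2.31 in CPM and -0.80 without the dominant transcripts. Of the 27 genes with several transcripts, 2 stayed 5-fold low when summed, 3 did at a fold of 3 and 0 at a fold of 10; in CPM, added after seeing the data, 4 did, and 3 did without the dominant transcripts. On scales tried after seeing the data, in CPM and in CPM without the dominant transcripts, the gene sum in Testis was above all other libraries for 0 and 1 genes (4 as deposited) and below all for 24 and 17 (6). The median log2 ratio of the gene sums (-0.67) was 1.19 and 0.29, and -0.79 with upper quartile scaling. Sister isoforms 5 times higher in Testis (8) numbered 2 and 4, passing transcripts with sister isoforms (73.0%) made up 25.2% in CPM, and the spread of OFUSG25196.1 (1.65) was 6.36 in CPM. Members with 3 Testis reads or fewer numbered 32. No paired analysis was possible because each tissue has 1 library.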

Other observations

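OFUSG20654 was the 1 gene without a member that was low in Testis when isoforms were summed, with 44.2 in Testis against 273 in Blood-vessel and 1871 in Gut as its extremes elsewhere. One of its 3 transcripts, OFUSG20654.1, had no Testis read and missed the floor with 92.8 in Blood-vessel. OFUSG26863.2 and OFUSG26806.2, also without a Testis read, missed the floor with 99.6 in Ovary and 99.3 in Gut.

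The identifiers OFUSG16958.1 and OFUSG16959.1 carry consecutive gene numbers and both are members. OFUSG16958.1 has a sister isoform with 647 in Testis, and OFUSG16959.1 is alone in its gene. Whether the numbers follow the position of genes in the genome was not tested.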
